A study of Ovis aries with 4 samples.

Results

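TSHZ2, MPZL1, MAPK14, RSF1, MYH9 and NSRP1 are 6 genes whose transcripts carried at least 4 separate m6A peaks in the sheep ovary at 1 of 2 ages. They were taken from 5261 genes with a peak at either age. They were chosen by the number of distinct peaks in a list, so the counts of 4 and 5 peaks below describe the choice and are not findings. The 6 are part of 25 genes that reached 4 peaks, and not those with the most. XG and ZBTB7A, with 5 aged peaks each, are not among them. TSHZ2, MPZL1, MAPK14 and RSF1 reached that number in young ovaries, and MYH9 and NSRP1 in aged ovaries.

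N6-methyladenosine (m6A) is a methyl group that the METTL3-METTL14 complex places on internal adenosines of messenger RNA. It is best known from the region around the stop codon, from 3' UTRs and from long internal exons. Reader proteins bind it and act on splicing, export, translation and decay, and several modified stretches can lie on the same transcript.

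Ovarian tissue of Cele black sheep aged 1 to 2 years (young) or 5 to 6 years (aged) was used, with no treatment named at either age. At each age RNA fragments were precipitated with an anti-m6A antibody and sequenced beside an untreated input, which gave 4 samples and 1 peak list per age. Whether a sample pooled animals is not given in the sources used here. A peak is a transcript stretch enriched in the precipitate, and its fold enrichment (a linear ratio), p and adjusted p are the authors' own values. With 1 list per age there was no replicate check and no test between ages. The sample titles number the young samples as replicate 1 and the aged samples as replicate 2, so age and replicate number cannot be told apart. Sequencing depth is not given and the inputs were not analysed here. Transcript levels in relation to a peak, or to its absence from a list, were therefore not tested. Coordinates are those of the deposited files, whose genome build is not given in the sources used here.

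Genes with this many peaks were rare. In the young list 8 of 3846 genes (0.208%) had at least 4 peaks, 1 of them 5, and 49 genes (1.27%) lay just outside with 3. In the aged list 17 of 3086 genes (0.551%) had at least 4 peaks, 3 of them 5, and 68 genes (2.20%) had 3. No gene had 4 or more peaks at both ages. Of the 25 genes that reached 4 in either list, 19 had a peak at both ages, as had 4 of the 6 genes described here. Over all 5261 genes with a peak it was 31.8%, most of which had fewer peaks. MPZL1 and MAPK14 had no aged peak, as did RRBP1 among the other 19 genes that reached 4 peaks.

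**Figure D1:**
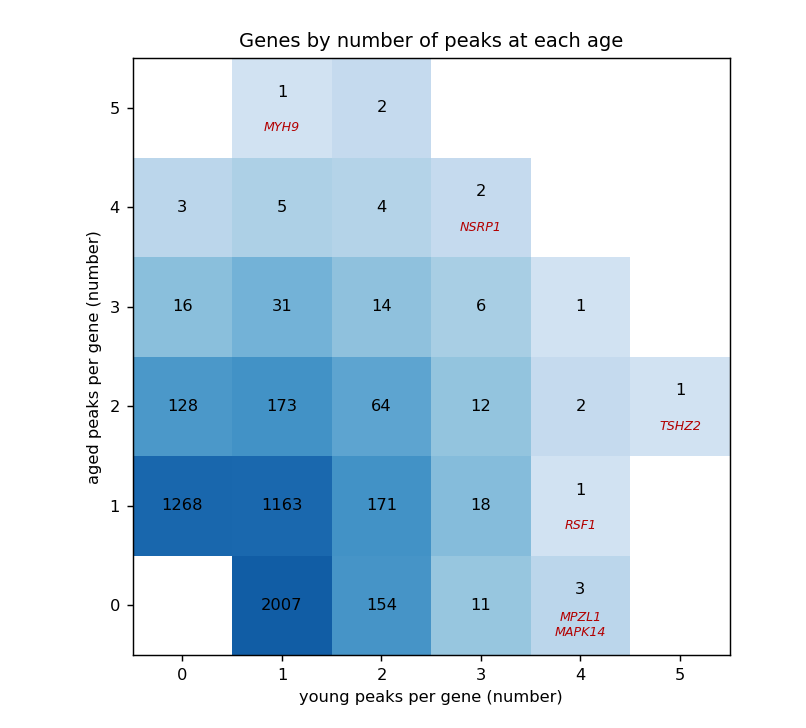
Number of genes by their count of young peaks (horizontal) and aged peaks (vertical), with the 6 genes written under the count of their cell; darker blue stands for more genes. MPZL1 and MAPK14 sit at 4 young and 0 aged peaks, and MYH9 at 1 young and 5 aged peaks.

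Together the 6 genes held 21 young and 12 aged peaks. The spacing of these peaks varied widely between the genes. In MAPK14 all peaks lay within 2377 bases, whereas in TSHZ2 the young peaks reached over 488011 bases of the genome. Between neighbouring peaks of a gene and list the gap was 98 bases or more, with a median of 1094 over 15 young gaps and 670 over 8 aged gaps. The corresponding medians over all genes with at least 2 peaks were 1020 and 796 bases. No peak spans of these genes overlapped within a list. Over all genes with at least 2 peaks, neighbouring spans overlapped in 1 of 532 young and 1 of 570 aged cases.

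**Figure D2:**
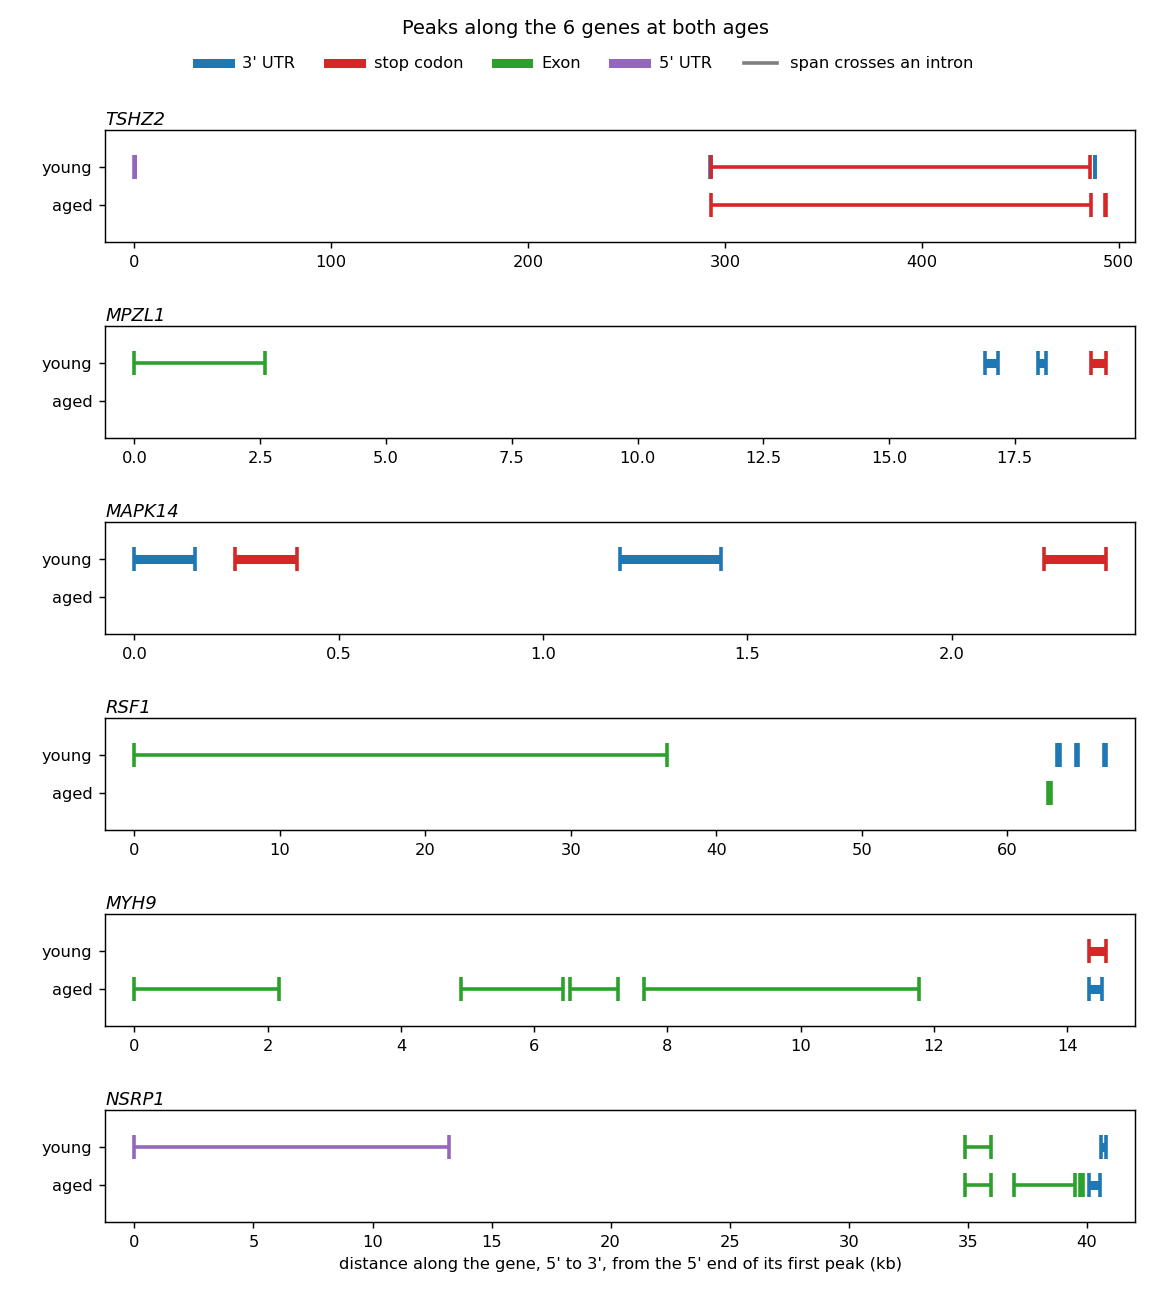
Peaks of each gene in 5' to 3' direction, with the distance in kb from the 5' end of the gene's first peak on the horizontal axis, young above aged; bars between ticks are peak spans, thin where the span crosses an intron, and colours give the deposited label. The MAPK14 peaks fill 2.38 kb, while the TSHZ2 peaks reach over 493 kb, and the upstream exon peaks of MYH9 appear in the aged list alone.

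TSHZ2 encodes teashirt homolog 2, a zinc finger homeobox protein that acts as a transcriptional repressor. The gene had 5 young and 2 aged peaks on the plus strand of chromosome 13. In the young list a pair labelled 5' UTR came first, at 80594631 to 80594781 with a fold of 2.33 and at 80594931 to 80595131 with a fold of 1.57. They were 149 bases apart and had the same p of 1.26e-15 and the same adjusted p, as rounded in the files.

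The other young peaks lay 292085 bases or more downstream. The first was labelled 3' UTR at 80887217 to 80887417, with a fold of 1.68. It was followed 149 bases later by a peak labelled stop codon with a fold of 2.31, which ran from 80887567 to 81080191. That peak held 151 bases of transcript in a genomic span of 192625 bases, so it crossed intron sequence. The last young peak, labelled 3' UTR at 81082491 to 81082641, had a fold of 2.12.

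In the aged list TSHZ2 had no 5' UTR peak. A peak labelled stop codon at 80887617 to 81080291 (fold 1.78, p 2.45e-10) spanned nearly the same stretch. It started 50 bases and ended 100 bases downstream of its young counterpart. Within its own list the aged peak lay at percentile 80.6 of significance and 38.5 of folds. The young counterpart lay at percentiles 51.6 and 65.2 of the young list. The second aged peak, also labelled stop codon, lay at 81087839 to 81088039 with a fold of 1.60 and p of 2.34e-05. It was 5197 bases from the nearest young peak of the gene. The intron-crossing stretch was thus the part of TSHZ2 with a peak at both ages, and the pair at the 5' end was listed in the young ovary alone.

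MPZL1 encodes a cell surface glycoprotein of the immunoglobulin superfamily that recruits the phosphatase SHP2 through its cytoplasmic tail. It had 4 young peaks and no aged peak on the plus strand of chromosome 1. The most upstream, labelled exon, ran from 119978724 to 119981309 over an intron and had a fold of 2.56. After a gap of 14329 bases came a cluster of the remaining peaks. Those labelled 3' UTR lay at 119995639 to 119995888 with a fold of 2.90 and at 119996685 to 119996834 with a fold of 2.57. The last, labelled stop codon, lay at 119997731 to 119998030.

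The strength order within MPZL1 depended on the measure. The stop codon peak had the lowest fold of the gene, 1.55, at percentile 5.40 of folds in the young list. It also had the smallest p of the gene, 1.00e-18. The 3' UTR peak with a fold of 2.57 had the largest p, 1.17e-09, at percentile 11.5 of significance in the list.

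MAPK14 encodes p38 alpha, the stress-activated kinase that answers inflammatory signals and also takes part in oocyte maturation. It had 4 young peaks and no aged peak on the plus strand of chromosome 20, all near the 3' end of the gene. In 5' to 3' order they were labelled 3' UTR (10165563 to 10165711, fold 1.84), stop codon (10165810 to 10165959, fold 1.69), 3' UTR (10166751 to 10166998, fold 2.19) and stop codon (10167790 to 10167939, fold 1.87). The labels thus alternated along 2377 bases, with gaps of 98, 791 and 791 bases. The first pair shared a p of 1.58e-17. These folds were modest for the list, between percentiles 18.8 and 58.5, and a single MAPK14 peak had a fold of at least 2.

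RSF1 encodes the histone-binding subunit of the RSF complex, which spaces nucleosomes together with the ISWI ATPase SMARCA5. It had 4 young peaks and 1 aged peak on the plus strand of chromosome 21. An upstream young peak labelled exon, with 250 transcript bases, spanned introns from 15855001 to 15891589 and had a fold of 2.37. Peaks labelled 3' UTR followed at 15918437 to 15918636 (fold 2.40), 15919731 to 15919880 (fold 2.20) and 15921622 to 15921771 (fold 1.77). The young folds were therefore lowest at the most 3' peak.

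The aged RSF1 peak lay at 15917790 to 15918039 and was labelled exon. It had a fold of 1.50, the lowest fold in the deposited list, and a p of 0.000219. It overlapped no young peak and lay 397 bases upstream of the nearest, the first one labelled 3' UTR.

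MYH9 encodes the heavy chain of non-muscle myosin IIA, the motor of contractile actin bundles, cell cortex and cleavage furrow. It had 1 young and 5 aged peaks on the minus strand of chromosome 3. The young peak, labelled stop codon at 180363349 to 180363598, had a fold of 2.53 and a p of 3.98e-24. That was the smallest p of the young member peaks, at percentile 78.1 of significance in the young list. The aged list held a peak in the same place, at 180363399 to 180363598, labelled 3' UTR, with a fold of 2.00 and p of 5.50e-09. That p lay at percentile 71.0 of significance in the aged list. Both peaks had the same 5' boundary, and 80.0% of the young span was covered.

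The 4 further aged peaks of MYH9 were all labelled exon and all crossed introns. In 5' to 3' order they lay at 180375750 to 180377926 (fold 1.65), 180371488 to 180373026 (fold 1.72), 180370664 to 180371388 (fold 1.92) and 180366153 to 180370276 (fold 1.72). They held 549, 200, 449 and 899 bases of transcript. The 3 downstream ones had the same p of 0.00158 and adjusted p of 0.00501, and the most upstream had an adjusted p of 0.0102. All 4 lay below percentile 10 of significance in the aged list. The peaks that made MYH9 rich in aged peaks were thus weak by p, unlike its 3' peak, which lay at percentile 71.0.

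NSRP1 encodes a nuclear speckle protein that regulates alternative splicing of pre-mRNA. It had 3 young and 4 aged peaks on the plus strand of chromosome 11. A peak labelled exon at 21207873 to 21208980, with 250 transcript bases, had identical boundaries at both ages. Its fold was 3.60 in the young list and 4.40 in the aged list, at percentiles 96.0 and 99.0 of their lists. This was the highest fold of all member peaks at each age.

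The remaining NSRP1 peaks did not overlap between ages. The young list had a peak labelled 5' UTR from 21172992 to 21186214 (fold 2.67) and a peak labelled 3' UTR at 21213588 to 21213787 (fold 2.18). The aged list had peaks labelled exon at 21209935 to 21212495 (fold 1.50) and 21212694 to 21212843 (fold 1.60), and a peak labelled 3' UTR at 21213091 to 21213538 (fold 1.65). The 3' UTR peaks of both ages were 49 bases apart. All 4 aged peaks were listed with a p of 1.26e-12, rounded as deposited, and the third had another adjusted p (2.00e-10) than the others (3.16e-11). The fold of the first was 4.40 and those of the others were 1.65 or lower.

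**Figure D3:**
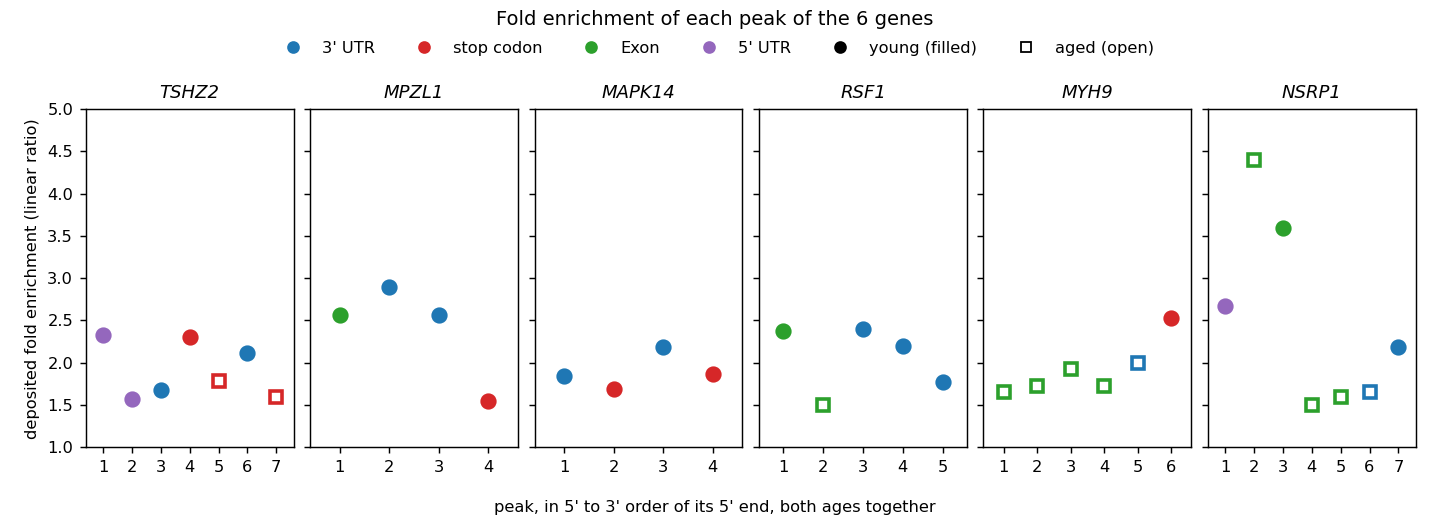
Deposited fold enrichment (linear ratio, vertical axis from 1) of each peak, numbered in 5' to 3' order with both ages together; filled circles are young and open squares aged, and colours give the label. The shared NSRP1 exon peak stands highest at 3.60 and 4.40, and 10 of the 12 aged peaks lie below 2.

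Overlap between ages was limited to 3 places, in TSHZ2, MYH9 and NSRP1. Counting any shared base on one strand as overlap, 3 of 21 young member peaks (14.3%) overlapped an aged peak, beside 34.3% of all 4378 young peaks. Of the aged member peaks 3 of 12 (25.0%) overlapped a young peak, beside 41.0% of all 3656. Peaks of the other genes that reached 4 peaks overlapped in 7 of 16 young (43.8%, Wilson 95% interval 23.1 to 66.8) and 20 of 62 aged cases (32.3%, 22.0 to 44.6). Of the 21 young peaks, 8 belonged to MPZL1 and MAPK14, where no aged peak existed to overlap. Peaks of a gene share a transcript, so these counts are not independent, and the differences from the lists were not tested.

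Most genes with several peaks had some peak at the other age. Of young genes with 1 peak 40.6% had an aged peak, with 2 peaks 62.3% and with 3 peaks 77.6%. At 4 or more peaks it was 5 of 8 genes (62.5%, 30.6 to 86.3), and TSHZ2 and RSF1 were among these 5. Of aged genes 51.6% with 1 peak, 66.3% with 2 and 76.5% with 3 had a young peak, and 14 of the 17 with 4 or more (82.4%, 59.0 to 93.8), MYH9 and NSRP1 included.

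Young peaks of these genes were mostly labelled 3' UTR or stop codon, as were those of the whole young list, and aged ones mostly exon. The 21 young member peaks were labelled 3' UTR in 10, stop codon in 5, exon in 3 and 5' UTR in 3 cases, beside 47.3%, 41.3%, 9.30% and 1.55% of the whole young list. The 12 aged peaks were labelled exon in 8, 3' UTR in 2 and stop codon in 2 cases, beside 15.3%, 66.4% and 15.3%. Other genes with at least 4 aged peaks had 62 aged peaks, of which 17 were labelled exon, 34 3' UTR and 5 stop codon. Other genes with at least 4 young peaks had 16 young peaks, 13 labelled 3' UTR and 3 exon. The 8 aged exon labels came from MYH9 (4), NSRP1 (3) and RSF1 (1). The 3 young 5' UTR labels came from TSHZ2 (2) and NSRP1 (1).

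In TSHZ2, MPZL1 and MAPK14 a young peak labelled 3' UTR lay 5' of a peak labelled stop codon, although on a transcript the stop codon precedes the 3' UTR. The stop codon peaks of MPZL1, of MYH9 in the young list and the last of MAPK14 coincided to the base with the gene's 3' boundary in a table of sheep genes. No aged peak of the 6 genes did. The labels are therefore given as deposited and not read as positions. How many peaks of the whole lists end at such a boundary is not given here. These coincidences therefore set apart neither the 6 genes nor the ages.

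Spans that crossed an intron made up 5 of 21 young and 7 of 12 aged member peaks, beside 16.9% and 22.5% of the lists. MYH9 gave 4 of the 7 and NSRP1 2. MAPK14 was the only one of the 6 genes without such a span. No young member peak was wider than 300 transcript bases (8.25% of the list were), whereas 4 of 12 aged ones were (23.2%). Those 4 were 3 exon peaks of MYH9 and the aged 3' UTR peak of NSRP1.

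Strength was compared with the whole list of the same age. Of the 21 young peaks, 14 had a fold of at least 2, beside 58.3% of the list, and their median fold was 2.20 against 2.05 for all young peaks. Of the 12 aged peaks, 2 had a fold of at least 2, beside 42.7%, with a median of 1.69 against 1.88. The median log10 p of member peaks was -14.9 in the young list (all peaks -15.3) and -6.45 in the aged list (all peaks -6.22). The aged peaks with a fold of at least 2 were the shared peaks of NSRP1 and MYH9.

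**Figure D4:**
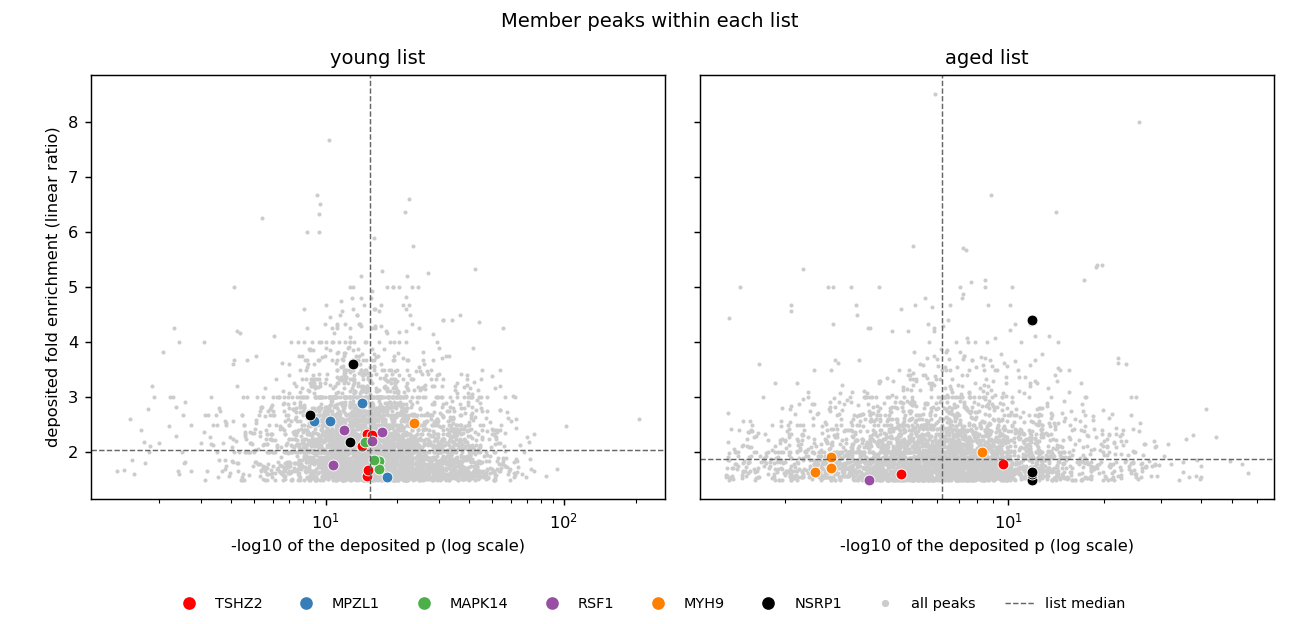
Deposited fold enrichment (vertical, linear ratio) against -log10 of the deposited p (horizontal, log scale) for all peaks (grey) and the peaks of the 6 genes (coloured), with dashed lines at each list's medians. Aged NSRP1 peaks share the p of 1.26e-12, and the exon peaks of MYH9 lie at the weak end of the aged list.

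The deposited p-values are powers of 10 whose exponents carry at most 3 digits, so p-values called the same here are equal to that rounding. Peaks of different genes tie as well, such as the last young peak of TSHZ2 and the second of MPZL1, both at 6.31e-15. Within a gene, peaks with the same p and adjusted p after this rounding occurred in TSHZ2 and MAPK14 in the young list and in MYH9 and NSRP1 in the aged list. By the same rounded values this held for 14.2% of young and 34.4% of aged genes with at least 2 peaks. Counting such peaks once left TSHZ2 with 4 and MAPK14 with 3 young peaks, MYH9 with 3 and NSRP1 with 2 aged peaks. How far such peaks are separate measurements was not tested.

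The deposited annotation gave the genes little in common. The term nucleus was attached to 5 of the 6, MPZL1 being the exception, and to 32.5% of the 5099 annotated genes with a peak. Of the terms attached to 2 of the genes, those with the lowest shares of annotated genes are named first. MAPK14 and NSRP1 shared nuclear speck (3.06%), and MAPK14 and MYH9 shared angiogenesis (1.61%). The other such terms had shares from 5.37% to 29.0%, among them plasma membrane in MPZL1 and MYH9 (19.2%). MAPK14 was listed under 59 pathways. Some of these were picked out after the list was seen. They were oocyte meiosis (1.91% of the 2248 genes with a listed pathway), progesterone-mediated oocyte maturation (1.69%), GnRH signalling (1.38%) and cellular senescence (2.58%). The rest covered many other themes, such as prolactin and relaxin signalling, infections and immune signalling. MYH9 was listed under 4 pathways, among them regulation of actin cytoskeleton, RSF1 under ATP-dependent chromatin remodelling and MPZL1 under cell adhesion molecules. TSHZ2 and NSRP1 had no listed pathway, and no pathway was listed for more than 1 of the 6 genes.

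Genes related to the members by function or family were counted in lists, except for MPZL1. Over all genes with a peak, 41.3% had it in the young list only, 26.9% in the aged list only and 31.8% in both. The share of all sheep genes that have a peak is not given here. How many genes of a list had a peak is thus a description without a background. Of 26 genes of the p38 module besides MAPK14, 10 had a peak, 5 young only, 3 aged only and 2 at both ages. Of the p38-activating kinase genes, named after their values were seen, MAP2K3 had 1 young peak (fold 1.63) and MAP2K6 1 aged peak (1.85). MAP2K4 had no peak. The transcription factor gene MEF2C, a p38 target, had 1 young and 3 aged peaks with highest folds of 1.92 and 2.44. MKNK2, encoding a kinase of the cap-binding factor eIF4E, had 2 young peaks and 1 aged peak, and RPS6KA5, encoding a kinase downstream of p38, had 2 aged peaks.

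Around MYH9, 7 of 24 genes of the non-muscle myosin system had a peak, 5 young only and 2 at both ages. The 2 shared genes, PPP1R12A and TPM1, themselves had 4 aged peaks each. PPP1R12A, the targeting subunit gene of myosin phosphatase, had 2 young peaks and highest folds of 3.50 (young) and 2.54 (aged). TPM1, a tropomyosin gene, had 1 young peak and highest folds of 2.25 and 1.89. The files give this gene the symbol TPM3, so which tropomyosin it is remains uncertain. A LOC gene with the symbol MYL12B, a myosin light chain, had 2 young peaks and may be a copy.

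Of 19 genes of ISWI and related chromatin complexes, 10 had a peak, 3 young only, 2 aged only and 5 at both ages. SMARCA5, the ATPase partner of RSF1, had 1 aged peak (fold 2.48). BPTF, the large subunit gene of the NURF remodeller, had 2 peaks at each age with highest folds of 3.50 and 2.36. The histone chaperone gene ANP32E (2.25 and 3.00) and the remodeller gene CHD1 (1.80 and 2.29) had 1 peak at each age.

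Of 27 SR protein and speckle genes around NSRP1, 17 had a peak, 9 young only, 2 aged only and 6 at both ages. SRSF10, encoding a splicing regulator, had 3 young peaks and no aged peak. LUC7L3 had 2 young peaks and 1 aged peak with highest folds of 3.00 and 2.12, and the speckle scaffold gene SON had 1 at each age (2.33 and 2.05).

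Around MPZL1, PTPN11, which encodes SHP2 itself, had 2 young peaks and 1 aged peak with highest folds of 2.17 and 4.60. SIRPA, another receptor that recruits SHP2, had 2 young peaks, and the adaptor gene GRB2 had 1 at each age (1.67 and 2.40). Of 16 zinc finger homeobox genes related to TSHZ2, 7 had a peak, 3 young only, 2 aged only and 2 at both ages. The paralogue TSHZ1 had 1 peak at each age (2.60 and 1.90), ZFHX3 had 2 young peaks and 1 aged peak, and ZFHX4 had 1 aged peak (3.67). None of these related genes exceeded 3 young peaks, and PPP1R12A and TPM1 alone among them reached 4 aged peaks.

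By the summed difference in young and aged peak numbers, the closest gene to MPZL1 and MAPK14 was RRBP1, with the same 4 young and 0 aged peaks. The closest to NSRP1 was TMEM167A, with the same 3 young and 4 aged peaks. BBS1 (4 and 2 peaks) came closest to TSHZ2, FGF1 (3 and 1) to RSF1 and TPM1 (1 and 4) to MYH9, each 1 peak away. These were 1 of 2, 1 of 20 and 1 of 7 genes at that distance, chosen by the closest highest fold.

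Of 34 marker genes of ovarian cell types, 17 had a peak in either list, with 2 of 7 for granulosa cells, 2 of 5 for theca and luteal cells, 2 of 6 for oocytes and 4 of 5 for stroma. For smooth muscle it was 1 of 4, for endothelium 3 of 4 and for macrophages 3 of 3. These counts too have no share over all sheep genes beside them. A peak list does not give transcript levels, so the tissue label was not checked by these counts.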

How the data were processed

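Per the labels' protocols, ovarian total RNA was extracted with Trizol and sequenced from stranded libraries. The authors deposited 1 annotated peak list per age. The submitters' processing notes name ChIPseeker, a peak annotation tool, and DESeq2, without a stated role. For the aligner, the peak caller, the genome build and the depth nothing is given in the sources used here. Per the file headers, the authors give for each peak a p-value, an adjusted p-value and a fold enrichment, a linear ratio that was 1.5 or more in every row. Their logarithms to base 10, also deposited, were handled as a score. Widths and coordinates are as deposited, with starts shifted by 1 base.

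Rows were taken by gene name. Rows with the same position and strand count as 1 peak. Spans, introns included, were compared on the same strand. A span longer than the deposited width by over 1 base was taken to cross an intron. Percentiles rank a peak within its own list, ties averaged. Chromosome numbers and gene ends came from a table of sheep genes, assembly ARS-UI_Ramb_v3.0, matched by identifier for 100% of the 6 genes. Its coordinates are not printed. Peak sequences were not used here.

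The 6 genes, the lists of related genes and markers, and the rules below were chosen with earlier results of these data known. Related genes were named by the most peaks over both lists, up to 3 per list, then by fold. MAP2K3, MAP2K4, MAP2K6 and SMARCA5 were added after their values were seen, as direct partners. For each member the gene closest in peak numbers was named, LOC genes left out. The counts of the list around MPZL1 are not reported here. Related genes were also matched by deposited symbol at LOC genes. The overlap code was tested on simulated data. Alternatives were merging of close peaks, a fold of at least 2, lists of equal length, an adjusted p up to 0.01, peaks within 1 exon and other overlap rules. Intervals are Wilson 95% intervals and cover counting error only. Computations ran in scipy 1.17.1, numpy 2.4.6 and pandas 2.3.3 under Python 3.11.15, with plots in matplotlib 3.10.9.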

Additional observations from a re-analysis of the deposited data

How the results depend on the processing

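With a fold of at least 2 the aged peaks of the 6 genes numbered 2 instead of 12. Of these 2, 50% were labelled 3' UTR and 0% stop codon. Young TSHZ2 then had 3 peaks and young MAPK14 1, while MPZL1 and RSF1 had 3 each. With only peaks within 1 exon the aged peaks numbered 5, and the young share labelled exon was 0%. In that setting NSRP1 had 1 young and 2 aged peaks and TSHZ2 1 aged peak. With a fold of at least 2, NSRP1 had 1 aged peak and TSHZ2 and RSF1 had 0. Aged MYH9 had 1 peak in either setting. Counting peaks of equal p once left MYH9 with 3 and NSRP1 with 2 aged peaks. Merging overlapping spans, an adjusted p of at most 0.01 and equal list lengths kept the total of each list within 1.5 times of that reported, as did merging spans within 100 bases and counting peaks of equal p once, the latter chosen after seeing the data. The overlapping peaks numbered 2 to 4 at each age in the settings run, which did not include overlap of exon blocks, since the files give none. No paired analysis was possible because each age has 1 peak list. Depth is not given, so its effect on these counts was not tested.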

Other observations

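Rows labelled stop codon or start codon mostly had another number format than other rows. Padding of numbers with spaces occurred in 1831 of 1831 such young rows and 549 of 579 such aged rows. It occurred in 0 of 2547 young and 0 of 3077 aged rows with the labels exon, 3' UTR or 5' UTR. Among the 6 genes, all rows labelled stop codon had the padded format. Its origin was not tested.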
